A study of Mus musculus with 4 samples.

Results

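The miRNAs described here are 7 mature products of the mouse miR-99/100, miR-125 and let-7e genes, out of 1078 mature miRNAs in the series table. They are miR-99a-5p, miR-99b-5p, miR-100-5p, miR-125a-5p, miR-125b-5p and both arms of let-7e, and each was found by its exact name, with values summed over hairpins. Small RNA was sequenced from 4 cell populations of C57BL/6J mice, with 1 library each. HSC were bone marrow cells sorted as c-Kit+, Sca1+ and lineage negative, with a stated purity above 95%. Immature dendritic cells (imDC) were bone marrow progenitors of mice of 5 to 6 weeks, kept for 6 days in GM-CSF (10 ng/mL) and IL-4 (1 ng/mL). The mature population (maDC) had the same cytokines and, from day 4, 10 ng/mL LPS, and were taken at day 8 on CD11c beads. Regulatory dendritic cells (DCreg) were maDC that spent at least 7 days on a monolayer of endothelial-like splenic stromal cells, were detached with trypsin and EDTA and were again selected on CD11c beads. All 3 dendritic cell groups thus share bone marrow origin, GM-CSF and IL-4. With 1 library per group there is no replicate check and no test. Whether animals were pooled was not given in the sources used here.

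A miRNA pairs with its target transcripts mainly through its seed, bases 2 to 8 counted from the 5′ end, so miRNAs with one seed are treated as a family. In mammals the let-7, miR-99/100 and miR-125 genes stand together in paralogous clusters. let-7 promotes differentiation and is blocked by LIN28, miR-99/100 represses mTOR and the IGF1 receptor, and miR-125b expands mouse haematopoietic stem cells when overexpressed. In human monocytes the cluster of miR-99b, let-7e and miR-125a is induced by LPS.

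The mature sequences are shown because the family assignments, and the single bases that separate close relatives, decide how reads could be counted. They are from RefSeq (GRCm38.p6), which held all 7 members, and are written 5′ to 3′ with the seed in capitals. The 3 miRNAs of the first seed group are all of those in the table with that seed.
miR-99a-5p: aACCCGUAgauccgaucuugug
miR-99b-5p: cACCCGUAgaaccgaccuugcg
miR-100-5p: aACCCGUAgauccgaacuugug
The second seed group also held miR-351-5p, encoded on the X chromosome.
miR-125a-5p: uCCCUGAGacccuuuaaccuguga
miR-125b-5p: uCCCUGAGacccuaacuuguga
miR-351-5p: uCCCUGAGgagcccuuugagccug
The third is the let-7 seed, which 10 miRNAs of the table carry, and let-7a-5p and let-7c-5p are shown beside let-7e-5p as the other let-7 genes of these clusters.
let-7e-5p: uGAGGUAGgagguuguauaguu
let-7a-5p: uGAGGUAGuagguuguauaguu
let-7c-5p: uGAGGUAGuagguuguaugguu
let-7e-3p, the opposite arm of the let-7e hairpin, shares its seed with no other miRNA in the table.
let-7e-3p: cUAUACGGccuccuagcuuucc
Positions below count from 1 at the 5′ end, with the base of the first-named miRNA first. miR-99a-5p and miR-100-5p differ at 1 base, U16A. miR-99a-5p and miR-99b-5p differ at 4 bases, A1C, U11A, U16C and U21C, none of them in the seed. let-7a-5p and let-7e-5p differ by U9G alone, just after the seed, and let-7c-5p differs from let-7e-5p by U9G and G19A. miR-125a-5p (24 nt) and miR-125b-5p (22 nt) share their first 13 bases.

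In the GENCODE annotation of GRCm38 the members come from 3 clusters, all on the plus strand. The compact one lies on chromosome 17 (17830188 to 17830879, 692 nt) and holds Mir99b, Mirlet7e and Mir125a. Mir99b and Mirlet7e are in introns of the protein-coding gene Spaca6, and Mir125a overlaps an annotated Spaca6 exon. The second spans 47408 nt of chromosome 16 (77598936 to 77646343) and holds Mir99a, Mirlet7c-1 and Mir125b-2 within introns of the noncoding gene Mir99ahg. Mir125b-2 also overlaps an exon of C130023A14Rik. The third spans 50578 nt of chromosome 9 (41531425 to 41582002) and holds Mir100, Mirlet7a-2 and Mir125b-1 within introns of 3110039I08Rik and Gm49317. Mir125b-1 also overlaps an exon of Gm28119, and Mir100 an exon of Gm48742 on the minus strand. Mature miR-125b-5p is therefore made from hairpins on chromosomes 9 and 16, and its reads cannot be assigned to one of them. The series table has no coordinates, and the authors' genome build was not given in the sources used here.

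Levels are given in 2 ways. The deposited value is the authors' normalised count, scaled to 1000000 per column (written ppm), and the columns summed to between 2725948 (DCreg) and 5251069 (imDC). The recount is the number of reads matched to the mature sequence in the deposited lists of unique sequences, which held between 4904897 (DCreg) and 6572858 (maDC) reads, 80.2% to 84.0% of them placed on a miRNA. Intervals are exact 95% intervals of the recount. They cover counting error only, since PCR copies are not independent molecules. The miRNAs of myeloid cells miR-223-3p, miR-142 (2 arms) and miR-21-5p were present in every library and summed to 43512 ppm in HSC and 72014 to 153291 ppm in the dendritic cell libraries. The higher sums came from miR-21-5p alone, at 19982 ppm in HSC and 61873 (DCreg) to 140653 ppm (imDC) in the dendritic cell libraries. miR-223-3p, miR-142-5p and miR-142-3p were instead each highest in HSC (3438, 18959 and 1133 ppm). The 4 erythroid markers in the table summed to 15231 ppm in the HSC library and 1.56 to 19.4 ppm in the others, and 3 muscle markers (miR-1a-3p, miR-206-3p and miR-133a-3p) to 8676 ppm in HSC, 40.6 ppm in imDC and 45.6 ppm in maDC, and 259 ppm in DCreg. By the recount the sums in HSC were 10244 ppm for the erythroid and 22730 ppm for the muscle markers. The library labelled HSC thus also held miRNAs that are used as markers of cell types outside its sort. Their source and their part in the member levels were not tested. miR-126 (2 arms), a marker of endothelial cells and also of HSC, summed to 1.47 ppm in DCreg, 2.46 ppm in maDC and 121 ppm in HSC. The 5 progenitor markers, these arms among them, summed to 2938 ppm in HSC, 591 ppm in imDC and 1054 ppm in maDC, and 3142 ppm in DCreg. Their recounted sums were 1188 ppm in DCreg and 1482 ppm in HSC, in the opposite order, since miR-130a-3p, at 1086 deposited ppm in DCreg and 372 ppm in HSC, had 0 recounted reads in every library.

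let-7e-5p was by far the most abundant of the 7 and stood higher at each stage than at the one before. Its deposited level was 3606 ppm in HSC, 6943 ppm in imDC and 26478 ppm in maDC, and 51264 ppm in DCreg. It ranked 41st among all miRNAs in HSC, 27th in imDC and 13th in maDC, and 7th in DCreg. The recount gave 9628, 22547, 87941 and 128198 reads in the same order of libraries, or 1852, 4279, 15921 and 32599 ppm, in the same order of size. The 4 intervals do not overlap, the HSC level being the lowest (1815 to 1890 ppm) and the DCreg level the highest (32420 to 32777 ppm). The opposite arm, let-7e-3p, which is usually degraded, had 0 recounted reads in HSC, 5 in imDC and 2 in maDC, and 19 in DCreg. A count of 0 in HSC allows up to 0.577 ppm (3 counts), and the only neighbouring pair in the order of let-7e-3p levels whose ratio excluded 1 was DCreg over imDC (5.09-fold, 1.84 to 17.4).

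miR-99b-5p followed the same order as let-7e-5p, its neighbour on chromosome 17, but with a different step. Its deposited level was 195 ppm in HSC, 755 ppm in imDC and 987 ppm in maDC, and 2497 ppm in DCreg, and its recounted level 105, 531, 561 and 1377 ppm in the same order. The largest step lay between HSC and imDC, whereas imDC and maDC stood close together. maDC over imDC was 1.31-fold in the deposited values and 1.06-fold in the recount (1.00 to 1.11), and it turned below 1 when only reads identical to the annotated sequence were counted.

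miR-125a-5p, the third product of that cluster, was the scarcest of the 3. Its deposited level was 45.4 ppm in HSC, 50.8 ppm in imDC and 108 ppm in maDC, and 423 ppm in DCreg. The recount gave 131, 198, 360 and 962 reads in that order, or 25.2, 37.6, 65.2 and 245 ppm. DCreg stood far above the other libraries, and HSC and imDC stood closest. imDC over HSC was 1.12-fold in the deposited values and 1.49-fold in the recount (1.19 to 1.87), a ratio that fell below 1 when the columns were scaled without every let-7 miRNA.

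miR-99a-5p and miR-125b-5p, which the chromosome 16 cluster encodes, had another pattern, with the lowest levels in imDC or maDC. miR-99a-5p had deposited levels of 175 ppm in HSC, 29.7 ppm in imDC and 8.27 ppm in maDC, and 345 ppm in DCreg. Its recounted reads numbered 502, 117, 26 and 750 in that order, with 96.6, 22.2, 4.71 and 191 ppm, and every neighbouring pair in the order of levels was separated by its interval. miR-125b-5p had deposited levels of 58.0 ppm in HSC, 13.5 ppm in imDC and 16.1 ppm in maDC, and 363 ppm in DCreg, with 313, 98, 93 and 1649 recounted reads. DCreg and HSC were thus high and imDC and maDC low for both. imDC and maDC did not separate for miR-125b-5p (1.10-fold higher in imDC by the recount, 0.823 to 1.48), and maDC over imDC had opposite directions in the deposited values (1.19-fold) and in the recount (0.905-fold).

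miR-100-5p, from the chromosome 9 cluster, was the only one of the 5p members that never reached 100 ppm. Its deposited level was 39.7 ppm in HSC, 0.571 ppm in imDC and 0.670 ppm in maDC, and 33.4 ppm in DCreg. Behind these stood 121 recounted reads in HSC, 0 in imDC and 2 in maDC, and 78 in DCreg. HSC and DCreg did not separate (DCreg over HSC 0.852-fold, 0.633 to 1.14, with a direction that differed between scalings), and the imDC and maDC reads were both at or under the floor of 3 counts.

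**Figure D1:**
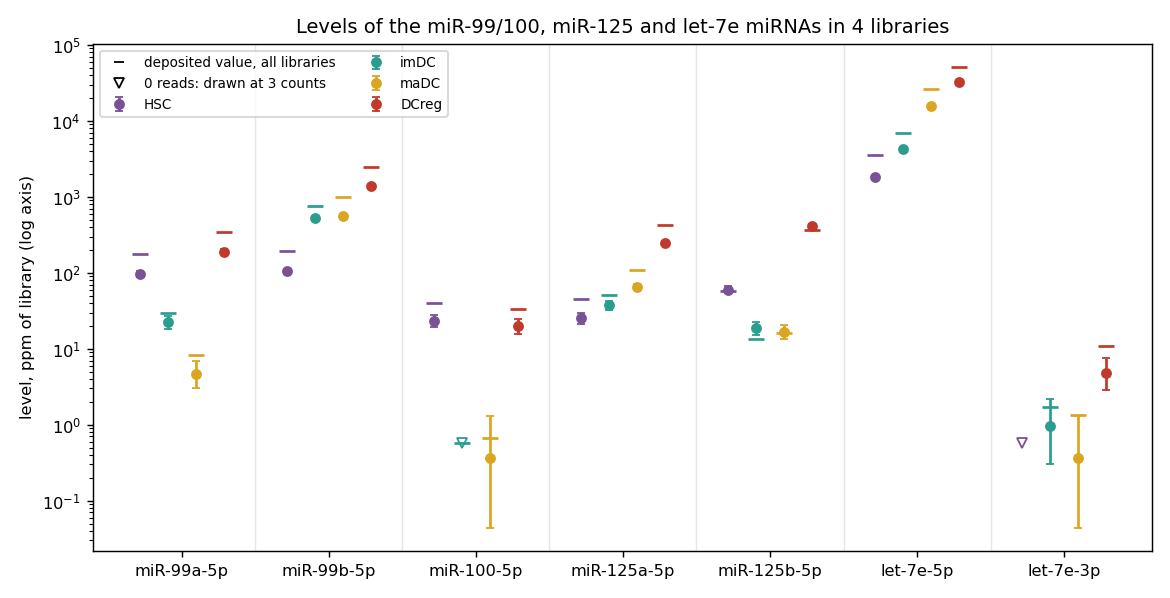
Level of each miRNA in ppm of its library (log axis) in HSC, imDC, maDC and DCreg, 1 library each; points are recounted reads with exact 95% intervals, short bars the deposited values, and open triangles mark libraries with 0 reads, drawn at 3 counts. let-7e-5p, miR-99b-5p and miR-125a-5p are lowest in HSC and highest in DCreg, while miR-99a-5p, miR-100-5p and miR-125b-5p are high at both ends and low in imDC and maDC.

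The deposited value of miR-125b-5p is the sum of the rows of its 2 hairpins, which held nearly equal values (495 and 495 in DCreg, 126 and 119 in HSC). Per recounted read it came to 0.600 in DCreg and 0.724 to 0.783 in the other libraries. The median over miRNAs with at least 100 reads was 1.21 in DCreg and 1.32 to 1.41 in the others. The deposited levels of miR-125b-5p therefore stood low against its reads, and in DCreg its order with miR-125a-5p turned: 363 ppm for miR-125b-5p and 423 ppm for miR-125a-5p by deposited values, 419 ppm and 245 ppm by the recount. The cause was not tested.

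Calls required a deposited ratio (pseudocount 0.5) of 2-fold or more between 2 libraries, and a level of 100 ppm or more in 1 of them. A miRNA under 100 ppm in 1 of the 2 libraries was tested only through the other, so it could be called only as higher there. Of the 7 members 5 reached that level in at least 1 library, all but miR-100-5p and let-7e-3p. These comparisons share libraries and are not independent of one another, so their values stand side by side without a measure of overlap.

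imDC were compared with HSC as the step from progenitor to immature dendritic cell. miR-99b-5p rose 3.86-fold (recount 5.06-fold, 4.62 to 5.56), while miR-99a-5p, of the same seed, was 5.90-fold lower in imDC (recount 4.35-fold, 3.55 to 5.37). Of the 3 members tested 1 was called higher, beside 26.2% of all 187 miRNAs tested, and 1 lower, beside 28.3%. let-7e-5p lay just under the fold used (1.93-fold) and just over it in the recount (2.31-fold, 2.26 to 2.37). miR-100-5p, outside the test for its level, was 69.6-fold lower in imDC by deposited values. By the recount it was 40.9-fold lower when its 0 reads in imDC were set at 3 counts. miR-125b-5p, also outside the test, was 4.29-fold lower (recount 3.24-fold, 2.57 to 4.10). By the recount both members tested were called higher, beside 36.7% of 147, and 0 lower, beside 18.4%. The lower call was lost because miR-99a-5p (96.6 recounted ppm in HSC) missed the level minimum. The median log2 ratio was 0.94 over the tested members and -0.12 over all miRNAs tested.

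Between maDC and imDC, which differed in LPS and in day of harvest (8 and 6), the 3 members tested were the chromosome 17 cluster. Selection on CD11c beads is given above for maDC and not for imDC. LPS, day of harvest and any difference in selection cannot be told apart here. let-7e-5p stood 3.81-fold higher in maDC (recount 3.72-fold, 3.67 to 3.78) and miR-125a-5p 2.12-fold higher (recount 1.73-fold, 1.45 to 2.07), while miR-99b-5p stayed under the fold. The 2 members called higher stood beside 9.38% of 160 miRNAs called higher, and 0 members were called lower, beside 45%. By the recount 1 of 2 members tested was called higher, beside 1.52% of 132, and 0 lower, beside 59.1%, since miR-125a-5p fell under both limits. miR-99a-5p, under the level minimum, was 3.59-fold lower in maDC (recount 4.72-fold, 3.06 to 7.52). The tested members had a median log2 ratio of 1.08, and all 160 miRNAs one of -0.88. The 6 markers of activated dendritic cells (miR-155-5p, miR-146a-5p, miR-132-3p, miR-212-3p, miR-9-5p and miR-147-3p) summed to 5828 ppm in imDC and 3238 ppm in maDC. Of these 0 were called higher and 2 lower in maDC, beside the same 9.38% and 45%, with a median log2 ratio of -0.50.

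DCreg were compared with maDC, the cells they were made from. Among the 5 members tested, miR-99a-5p and miR-125b-5p rose most, miR-99a-5p 41.7-fold (recount 40.5-fold, 27.4 to 62.4) and miR-125b-5p 22.6-fold (recount 24.9-fold, 20.2 to 31.0). Of the chromosome 17 products, miR-125a-5p rose 3.93-fold (recount 3.75-fold, 3.32 to 4.25) and miR-99b-5p 2.53-fold (recount 2.46-fold, 2.35 to 2.57). let-7e-5p was 1.94-fold higher, under the fold used, and 2.05-fold in the recount (2.03 to 2.07). Of the 5 members tested 4 were called higher, beside 20.3% of 138 miRNAs, and 0 lower, beside 28.3%. By the recount all 5 were called higher, beside 18.1% of 105, and 0 lower, beside 24.8%. The median log2 ratio was 1.97 over these members and -0.34 over all tested. miR-100-5p, outside the test for its level, had a higher ratio than either, 49.8-fold by deposited values and 54.8-fold by the recount (14.7 to 460), from 78 reads in DCreg and 2 in maDC.

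DCreg against imDC was the comparison in which all 5 members tested were called higher, beside 16.1% of 168 miRNAs, and 0 lower, beside 56%. The recount called the same number, beside 12.4% of 137 higher and 65.7% lower. miR-125b-5p was 26.9-fold higher (recount 22.5-fold, 18.4 to 27.9), miR-99a-5p 11.6-fold (recount 8.59-fold, 7.06 to 10.5) and miR-125a-5p 8.32-fold (recount 6.51-fold, 5.58 to 7.62). let-7e-5p stood 7.38-fold higher (recount 7.62-fold, 7.51 to 7.73) and miR-99b-5p 3.31-fold (recount 2.60-fold, 2.48 to 2.72). With only reads identical to the annotated sequence, miR-125a-5p and miR-99b-5p were no longer called, at log2 ratios of 0.37 and 0.44, and 3 of 4 members tested were. miR-100-5p was 34.8-fold higher by the recount when its 0 reads in imDC were set at 3 counts. The median log2 ratio was 3.05 over the members tested and -1.25 over all 168.

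DCreg against HSC set the 2 ends of the series side by side. let-7e-5p stood 14.2-fold higher in DCreg (recount 17.6-fold, 17.2 to 18.0), miR-99b-5p 12.8-fold (recount 13.1-fold, 12.0 to 14.4), miR-125a-5p 9.31-fold (recount 9.71-fold, 8.08 to 11.7) and miR-125b-5p 6.27-fold (recount 6.96-fold, 6.17 to 7.88). miR-99a-5p lay just under the fold at 1.97-fold (recount 1.97-fold, 1.76 to 2.22), so 4 of 5 members were called higher, beside 19.4% of 175 miRNAs, and 0 lower, beside 56%. By the recount it was also 4 of 5 higher, beside 17.4% of 132, and 0 lower, beside 56.1%. The members tested had a median log2 ratio of 3.22 and all 175 one of -1.43.

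maDC against HSC split the members by cluster. let-7e-5p stood 7.34-fold higher in maDC (recount 8.60-fold, 8.42 to 8.78), miR-99b-5p 5.05-fold (recount 5.35-fold, 4.88 to 5.87) and miR-125a-5p 2.37-fold (recount 2.59-fold, 2.11 to 3.18). miR-99a-5p was 21.2-fold lower (recount 20.5-fold, 13.8 to 31.7). Of 4 members tested 3 were called higher, beside 21.7% of 180 miRNAs, and 1 lower, beside 48.9%. By the recount 2 were called higher, beside 21.2% of 132, and 0 lower, beside 47.7%, because miR-99a-5p (96.6 ppm in HSC) and miR-125a-5p (65.2 ppm in maDC) missed the level minimum. miR-125b-5p was 3.60-fold lower (recount 3.58-fold, 2.83 to 4.56) and miR-100-5p 59.3-fold lower (2 reads in maDC and 121 in HSC, recount 64.3-fold, 17.4 to 537), both under the minimum.

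**Figure D2:**
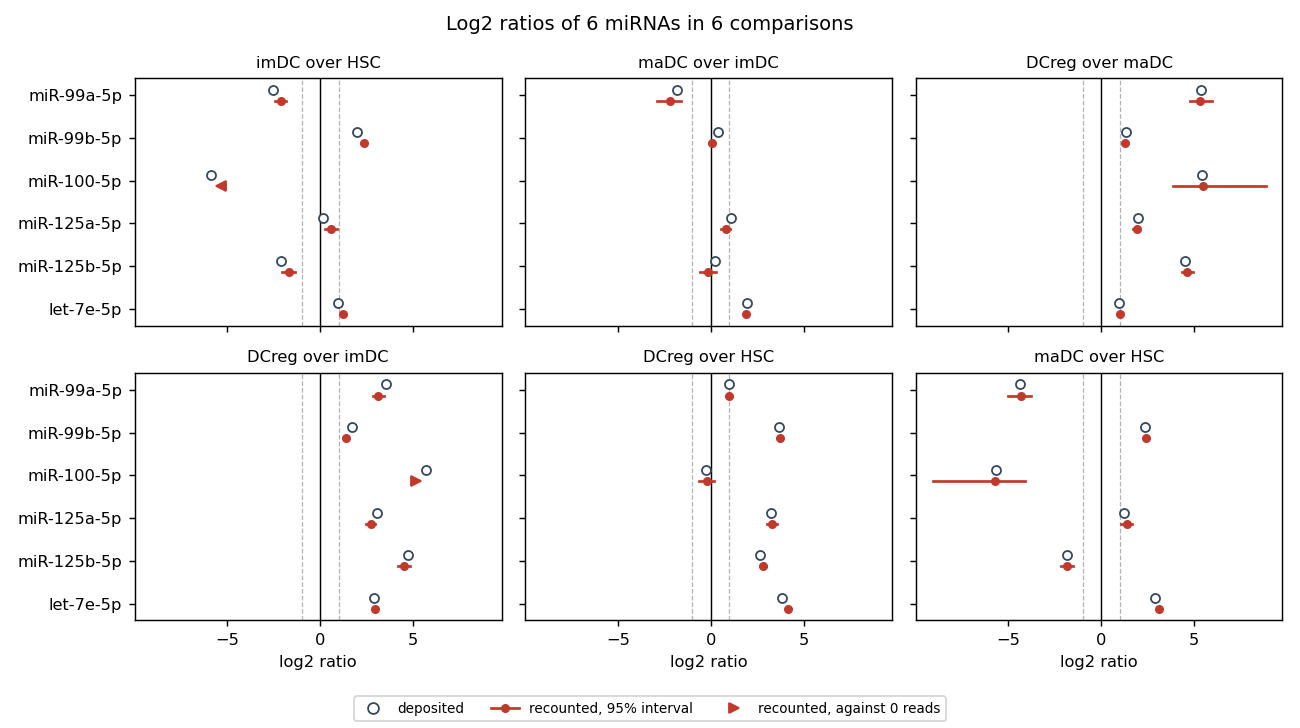
Log2 ratios of 6 miRNAs in 6 comparisons, as deposited values (open circles, pseudocount 0.5) and as recounted reads with 95% intervals (filled); arrowheads are ratios against 0 reads, set at 3 counts, dashed lines mark 2-fold, and miR-100-5p is left out of maDC over imDC, where both libraries had at most 3 reads. In DCreg over imDC all 6 lie to the right of 0, and in maDC over HSC miR-99a-5p, miR-100-5p and miR-125b-5p lie to the left.

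Markers of stromal or mesenchymal cells, like miR-99a-5p, miR-100-5p and miR-125b-5p, had higher summed levels in DCreg and HSC than in imDC and maDC. The 8 markers on the list (miR-143-3p, miR-145-5p, both arms of miR-199a, miR-199b-5p, miR-214-3p, miR-10b-5p and miR-218-5p) summed to 1099 ppm in HSC, 63.6 ppm in imDC and 185 ppm in maDC, and 311 ppm in DCreg. Above 0 were 7 of 8 in HSC and DCreg, where miR-218-5p was at 0, and 8 of 8 in imDC and maDC. Single stromal markers differed in direction. miR-143-3p was at 155 ppm in DCreg and 40.9 ppm in maDC, and miR-10b-5p at 55.4 ppm in DCreg and 7.37 ppm in maDC. miR-199a-3p was at 79.6 ppm in DCreg and 120 ppm in maDC, and miR-214-3p at 9.54 ppm in DCreg and 13.6 ppm in maDC. The muscle markers had the same order of DCreg and HSC above imDC and maDC. miR-1a-3p was at 129 ppm in DCreg, 14.3 ppm in maDC and 7773 ppm in HSC, and miR-206-3p at 129 ppm in DCreg, 31.3 ppm in maDC and 858 ppm in HSC, while miR-133a-3p was at 0 in DCreg and maDC. In DCreg against maDC 2 of 2 muscle markers tested were called higher (median log2 ratio 2.61), beside 20.3% of 138 miRNAs. Of the stromal ones 1 of 2 was called higher (median 0.67), namely miR-143-3p. Both muscle markers and miR-143-3p reached the level minimum in DCreg alone, so they could be called only as higher. By the recount 1 of 1 muscle marker tested was called higher (2.94), and 0 of 1 stromal (miR-199a-3p, -0.57), beside 18.1% of 105. miR-206-3p (73.2 recounted ppm in DCreg) and miR-143-3p (94.8 ppm) missed the level minimum there. DCreg were grown on a stromal layer for at least 7 further days, detached with trypsin and EDTA and selected again, and maDC were not. The stromal culture, the added time, these steps and any stromal RNA that came with the cells cannot be told apart here. In libraries of bulk cells, a change in the share of cells of a type cannot be told apart from a change in RNA per cell. The part of stromal or muscle RNA in the member levels was not tested.

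The make-up of each seed group differed between the libraries. Of the recounted reads with the miR-99/100 seed, miR-99a-5p held 43.0% in HSC (40.1% to 45.9%), 4.02% in imDC and 0.832% in maDC, and 12.0% in DCreg (11.2% to 12.8%). miR-99b-5p held 46.7%, 96.0%, 99.1% and 86.7% in that order. Nearly all miR-99/100 seed reads in imDC and maDC thus came from the chromosome 17 hairpin. The whole group summed to 225, 553, 566 and 1588 recounted ppm in the same order.

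In the miR-125 group the member most copied differed between libraries. miR-125b-5p held 59.8% of its reads in HSC (55.5% to 64.1%), 26.0% in imDC and 19.2% in maDC, and 62.1% in DCreg (60.3% to 64.0%), while miR-125a-5p held 25.0%, 52.5%, 74.4% and 36.2%. miR-351-5p, the third miRNA of this seed, had 15.2, 15.4, 5.61 and 10.9 recounted ppm and a share of 1.62% in DCreg, against 15.1% in HSC. By deposited values miR-125a-5p was ahead of miR-125b-5p in DCreg (52.2% and 44.9%), as the 2 measures of miR-125b-5p differ. The whole group stood at 101, 71.6, 87.6 and 675 recounted ppm in HSC, imDC, maDC and DCreg.

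let-7e-5p was a small part of the let-7 family throughout. It held 0.272% of recounted let-7 reads in HSC, 0.879% in imDC and 2.18% in maDC, and 4.36% in DCreg, and 0.790%, 2.39%, 5.55% and 9.90% of the family's deposited values. Of the 8 tested let-7 relatives that share its seed, 0 were called higher and 3 lower in DCreg against HSC. Among all 175 miRNAs tested these shares were 19.4% and 56%. The relatives had a median log2 ratio of -0.28, against 3.83 for let-7e-5p. In maDC over imDC 4 of the 8 were called higher and 0 lower, beside 9.38% and 45% (median 0.91, let-7e-5p 1.93). By the recount these counts were 0 and 2, beside 1.52% and 59.1%. In DCreg over imDC 3 were called higher and 3 lower, beside 16.1% and 56% (median 0.38, let-7e-5p 2.88). The family as a whole was at 680799 recounted ppm in HSC and 747126 in DCreg.

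**Figure D3:**
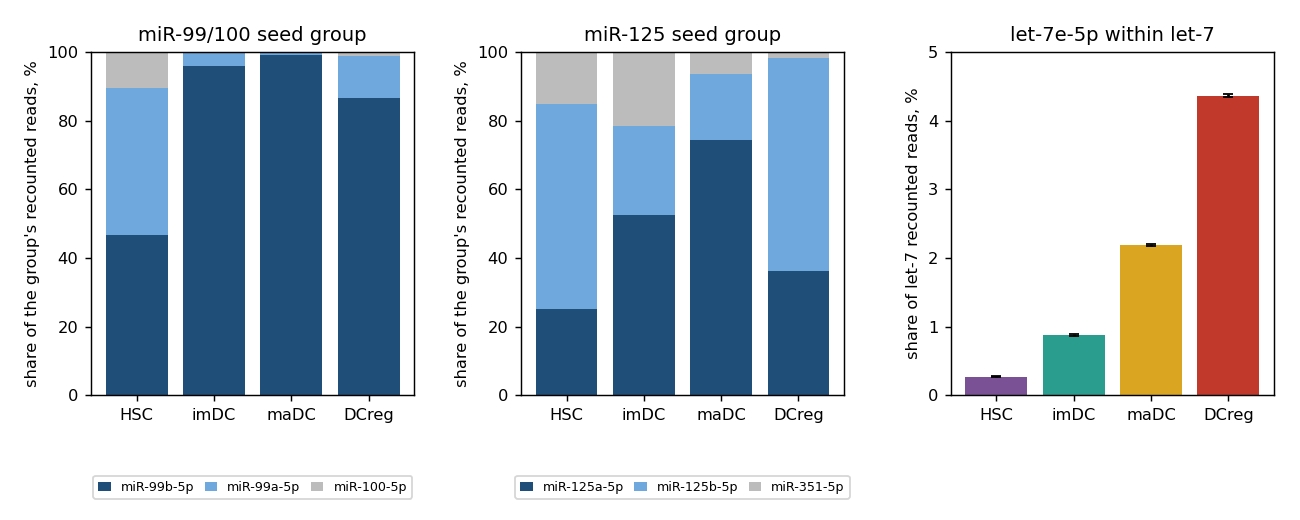
Shares of recounted reads (vertical axes, percent) within the miR-99/100 seed group, within the miR-125 seed group and of let-7e-5p within the let-7 family, for HSC, imDC, maDC and DCreg; bars of the first 2 panels sum to 100%, and error bars of the third are exact 95% intervals. miR-99b-5p holds 86.7% or more in the 3 dendritic cell libraries and 46.7% in HSC, miR-125b-5p is largest in HSC and DCreg, and let-7e-5p goes up at each stage to 4.36%.

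The products of one cluster did not keep a fixed ratio to each other. On chromosome 17, let-7e-5p had 17.7 reads for each read of miR-99b-5p in HSC, 8.06 in imDC and 28.4 in maDC (27.4 to 29.4), and 23.7 in DCreg (23.0 to 24.3). miR-99b-5p had 4.16 reads for each of miR-125a-5p in HSC, 14.1 in imDC and 8.61 in maDC, and 5.63 in DCreg. imDC therefore held relatively more miR-99b-5p than any other library on both counts. miR-99a-5p had 1.60 reads for each of miR-125b-5p in HSC, 1.19 in imDC and 0.280 in maDC (0.174 to 0.436), and 0.455 in DCreg (0.417 to 0.496), although reads of the chromosome 9 hairpin enter the lower term. Ratios between miRNAs also carry ligation and amplification bias, which is shared by the libraries as far as their protocol was the same.

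The opposite arms gave 2 further views of the hairpins. miR-99b-3p had 10 reads in HSC, 50 in imDC and 174 in maDC, and 179 in DCreg, and miR-125a-3p 6, 56, 73 and 92 in that order. Both were lowest in HSC, as their 5p partners were. The ratio of miR-99b-5p to miR-99b-3p was 54.5 in HSC, 55.9 in imDC and 17.8 in maDC (15.3 to 20.9), and 30.3 in DCreg (26.1 to 35.3), so maDC over imDC differed between the arms (3.32-fold for the 3p arm, 2.41 to 4.64, and 1.06-fold for the 5p arm). The ratio of miR-125a-5p to miR-125a-3p was 21.8 in HSC, 3.54 in imDC (2.62 to 4.85) and 4.93 in maDC, and 10.5 in DCreg (8.44 to 13.1). let-7e-5p outnumbered let-7e-3p 6747-fold in DCreg (4320 to 11207). The let-7e hairpin is shown from RefSeq (GRCm38.p6, chr17:17830352-17830444, plus strand) with its 2 mature arms in capitals, since its strong arm preference is the most uneven of the members.
Mirlet7e: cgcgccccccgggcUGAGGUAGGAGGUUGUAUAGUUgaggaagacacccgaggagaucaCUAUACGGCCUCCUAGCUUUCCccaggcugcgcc

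The 3p arms of miR-125b carry the hairpin of origin, which the 5p arm does not. miR-125b-1-3p, from chromosome 9, had 3 reads in HSC, 2 in imDC and 3 in maDC, and 35 in DCreg, and miR-125b-2-3p, from chromosome 16, had 11, 5, 0 and 13. DCreg over maDC was 16.4-fold for miR-125b-1-3p (5.17 to 83.3). miR-99a-3p had 14, 3, 0 and 15 reads, miR-100-3p only 2 reads in DCreg, and let-7c-1-3p and let-7a-2-3p at most 1 read in any library. Of the 10 partner miRNAs on these transcripts, let-7a-5p and let-7c-5p alone reached 100 ppm, and both are also made from hairpins elsewhere. let-7c-5p was called higher in DCreg than in maDC (2.01-fold, just over the fold used), and let-7a-5p was not (0.741-fold). This was 1 of 2 partners tested, beside 20.3% of 138 miRNAs.

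The 3 miRNAs with the most similar course over the 4 libraries were found for each member that reached 100 ppm, as the smallest root mean square difference between centred log2 levels among 198 miRNAs. For let-7e-5p they were miR-511-3p (0.54), miR-99b-5p (0.57) and miR-125a-5p (0.59). For miR-99b-5p they were miR-511-3p (0.21), miR-151-3p (0.43) and miR-2182 (0.49), and for miR-125a-5p miR-511-3p (0.49), miR-151-3p (0.53) and miR-5099 (0.54). The chromosome 17 products were thus near one another, with differences of 0.57 to 0.67 between each pair. For miR-99a-5p the nearest were miR-30a-5p (0.75), miR-125b-5p (0.98) and miR-130a-3p (0.99), and for miR-125b-5p miR-322-3p (0.73), miR-129-5p (0.80) and miR-130a-3p (0.85). miR-99a-5p and miR-99b-5p, of one seed, were 2.44 apart.

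Some of these neighbours have deposited values that the read lists do not bear out at the annotated sequence. miR-511-3p had 0 to 3 recounted reads per library beside 1492 deposited ppm in DCreg, and miR-2182 and miR-130a-3p had none. Among 156 miRNAs compared by recounted levels, an alternative chosen after seeing the data, the 3 nearest to let-7e-5p were miR-125a-5p (0.63), miR-99b-5p (0.69) and miR-151-3p (0.80), and miR-30a-5p stayed first for miR-99a-5p (0.75). With 4 libraries these distances are a description.

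Reads of miR-125a-5p differed between libraries at the 3′ end. Its most copied form in DCreg and maDC lacked the last 2 bases of the annotated sequence. The forms are printed as read, in DNA letters, with the 2 end bases in capitals.
22 nt form: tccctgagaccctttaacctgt
24 nt form: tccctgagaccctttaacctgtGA
The 22 nt form made up 38.9% of miR-125a-5p reads in HSC (30.5% to 47.8%), 42.8% in maDC (37.6% to 48.1%) and 58.6% in DCreg (55.4% to 61.8%). In imDC all reads of 22 nt came to 12.1%. The full 24 nt form made up 4.58% in HSC, 33.3% in imDC (26.8% to 40.4%) and 19.2% in maDC (15.2% to 23.6%), and 7.38% in DCreg (5.81% to 9.22%), and imDC was the only library in which it was the most copied form. miR-125a-5p was lower in maDC than in imDC when only reads identical to the annotated sequence were counted (log2 ratio -0.31), against a log2 ratio of 0.79 over all its reads.

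miR-99b-5p and let-7e-5p also ended differently in the libraries. The 21 nt form of miR-99b-5p, 1 base short of the annotation, held 29.7% of reads in HSC, 17.2% in imDC and 16.5% in maDC, and 31.7% in DCreg. Reads with bases beyond or unlike the annotated 3′ end held 37.1%, 31.5%, 42.7% and 34.2% in that order. In full-length miR-99b-5p reads with added bases, A was the first of these in 54.0% in HSC, 77.0% in imDC and 68.3% in maDC, and 50.5% in DCreg, and U in 46.0%, 20.7%, 28.1% and 46.8%. Reads of let-7e-5p shorter than the annotation made up 14.1% in HSC, 7.08% in imDC and 7.18% in maDC, and 19.4% in DCreg (19.2% to 19.6%). Short forms of both were thus commoner in HSC and DCreg than in imDC and maDC. miR-125b-5p had 27.2%, 21.4%, 5.38% and 28.3% of shorter reads in the same order, with 93 reads behind the maDC share (1.77% to 12.1%). The 5′ end, which sets the seed, was the annotated one in at least 98.3% of reads of each 5p member in every library with reads.

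**Figure D4:**
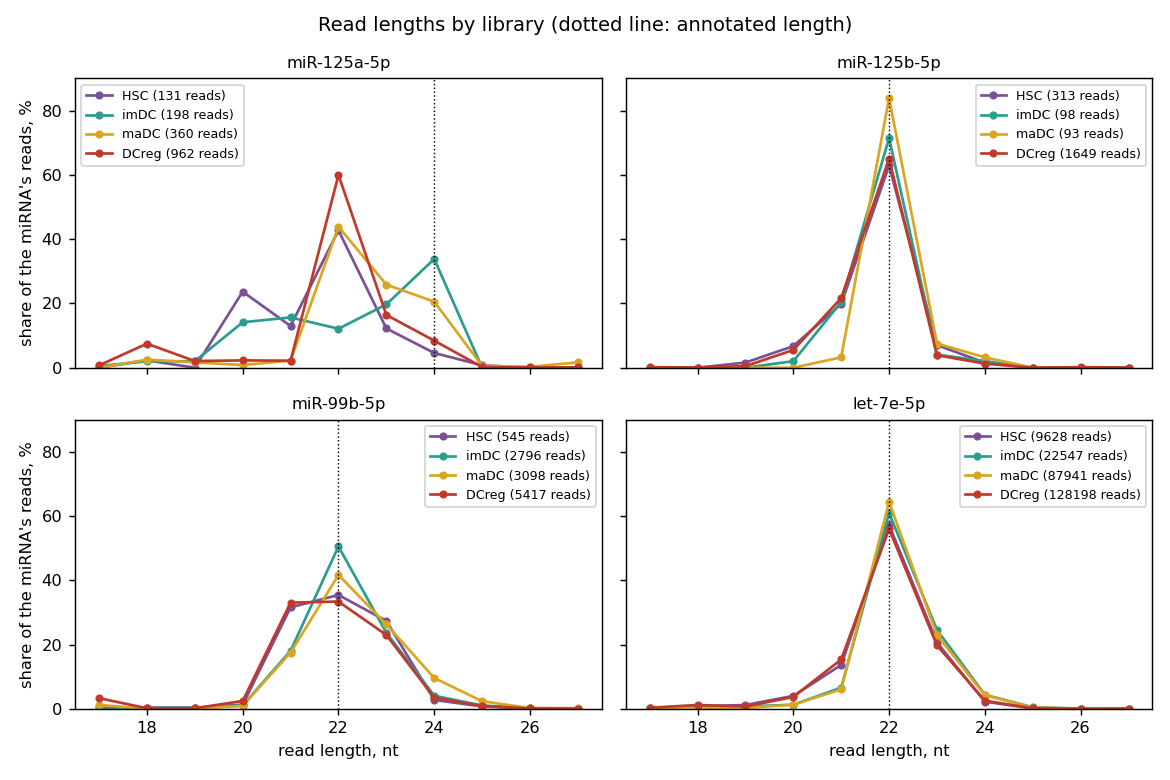
Share of the recounted reads of miR-125a-5p, miR-125b-5p, miR-99b-5p and let-7e-5p (vertical axis, percent) by read length in nt, with 1 line per library, the number of reads in the legend and a dotted line at the annotated length. miR-125a-5p peaks at 24 nt in imDC and at 22 nt in the other 3 libraries, and reads of 21 nt are commoner for miR-99b-5p and let-7e-5p in HSC and DCreg.

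let-7e-5p is 1 base from let-7a-5p, which had far more reads, so the level of that base change in other let-7 sequences was taken as a background. The base in question is in capitals.
let-7e-5p: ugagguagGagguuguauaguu
let-7a-5p: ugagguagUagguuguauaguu
Reads identical to let-7e-5p made up 0.723% of let-7a-5p and let-7e-5p reads in HSC (0.701% to 0.746%), 2.60% in imDC and 7.53% in maDC, and 17.6% in DCreg (17.5% to 17.8%). The same change U9G in let-7f-5p, which gives no annotated miRNA of the table, was seen in 0.225% of reads in HSC, 0.635% in imDC and 0.551% in maDC, and 0.729% in DCreg. In let-7c-5p it was seen in 0.228%, 0.670%, 0.793% and 0.961%, in reads that are also 1 base from let-7e-5p. At the same position of let-7a-5p the change U9C had 0.426%, 0.263%, 0.105% and 0.596%. let-7e-5p stood above these position 9 shares in every library. Of 63 single-base changes of let-7a-5p that give no annotated miRNA, the most frequent reached 1.60% in HSC, 1.82% in imDC and 1.40% in maDC, and 0.940% in DCreg, with medians of 0.0515%, 0.0435%, 0.0287% and 0.0258%. The let-7e-5p share was thus below the most frequent of these in HSC and above it in the other libraries.

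If the let-7f-5p share also held for let-7a-5p, it would account for 30.9% of the reads identical to let-7e-5p in HSC, 23.9% in imDC and 6.81% in maDC, and 3.43% in DCreg. Without it, an alternative added after seeing the data, identical reads of let-7e-5p in DCreg over HSC went to 27.9-fold, against 20.0-fold with it, and in imDC over HSC to 3.26-fold, against 2.97-fold. Reads of let-7e-5p with A19G, the base that let-7c-5p has at that position, are the same reads as let-7c-5p with U9G above. They made up 11.1% of the recounted let-7e-5p reads in HSC (10.5% to 11.8%), 8.42% in imDC, 4.50% in maDC and 5.27% in DCreg. These reads are 1 base from let-7e-5p and from let-7c-5p, and were counted as let-7e-5p with unmatched 3′ bases. Which of these miRNAs they came from was not tested. The let-7c-5p share is therefore no independent background for let-7e-5p. Single-base changes were also looked at for miR-100-5p, 1 base from miR-99a-5p. U16C and U16G of miR-99a-5p had 0 reads in all 4 libraries, beside 341 reads identical to miR-99a-5p in DCreg and 189 in HSC. U16A, the miR-100-5p sequence, had 27 reads in DCreg and 41 in HSC.

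**Figure D5:**
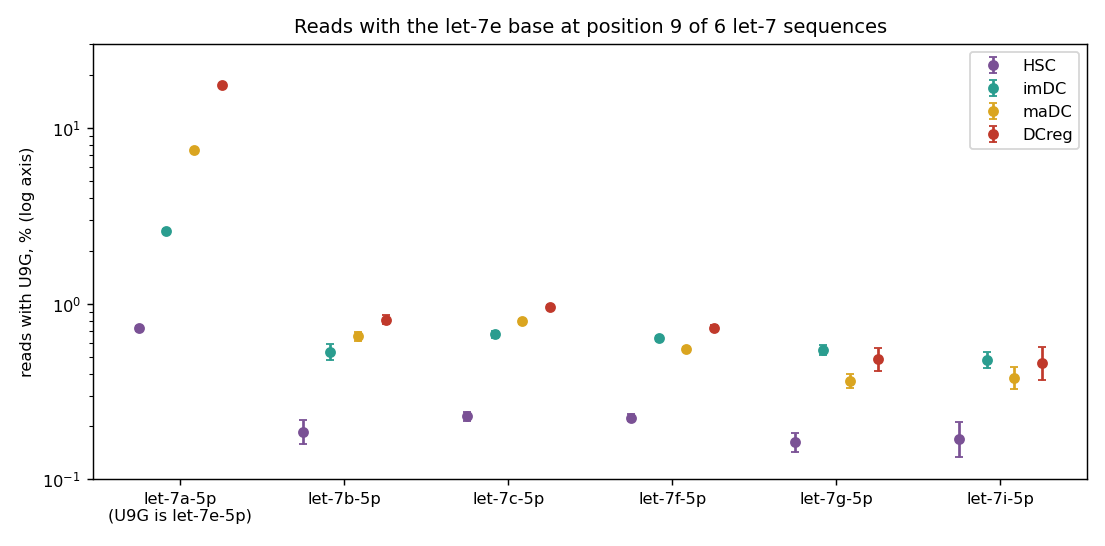
Reads with U9G as a percent of the reads with and without it (log axis) for 6 let-7 sequences in HSC, imDC, maDC and DCreg, with exact 95% intervals. In let-7a-5p, the only one where the change gives an annotated miRNA (let-7e-5p), it reaches 17.6% in DCreg and 0.723% in HSC, while the other 5 sequences stay at 0.961% or less in every library.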

How the data were processed

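The series table holds the authors' deposited scores, whole numbers named normalised counts in the file headers, 1 for each hairpin of a mature miRNA. Their normalisation, the aligner and the treatment of multiply matching reads were not given in the sources used here. As stated per the labels' protocols, reads matching other RNA classes were filtered and the rest compared with miRBase release 19. Each library's deposited list of unique sequences gives other values, copy numbers of reads.

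Deposited scores were summed over hairpins and scaled to 1000000 per column. Reads were recounted by exact match to the table's mature sequences (at least 16 nt, 5′ end within 2 nt, at most 5 unmatched 3′ bases, longest match, ties divided equally) and checked on simulated data. A deposited fold is a plain ratio, while log2 ratios and calls use a pseudocount of 0.5. Ratio intervals are conditional binomial (Clopper-Pearson), level intervals Poisson, and the floor is 3 counts. No test was made, as there was 1 library per cell type. Members, partner and marker lists were chosen with earlier results of these data known. The miRNAs named are the members, their partners and seed relatives, the 3 nearest patterns, and markers. Calculations used Python 3.11.15, numpy 2.4.6, pandas 2.3.3 and scipy 1.17.1. The 13 alternatives changed the scaling, pseudocount, level minimum, sum over hairpins or read matching.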

Additional observations from a re-analysis of the deposited data

How the results depend on the processing

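No paired analysis was possible because each cell type had 1 library and no value comes from a test. Of 41 member ratios, 35 kept their direction under every alternative that gave a value, which was 13 alternatives except for let-7e-3p (12, and 9 in maDC over HSC). Of the called ones, 1 reversed: miR-125a-5p in maDC over imDC, at -0.31 (log2) with identical reads alone, since imDC held more of the 24 nt form. The others that changed direction were miR-99b-5p, miR-125b-5p and let-7e-3p in maDC over imDC, miR-100-5p in DCreg over HSC and miR-125a-5p in imDC over HSC. The number of members called moved by more than 1.5 times in these cases. In imDC over HSC (2 called) it was 4 with a level minimum of 10 ppm and 5 with none. In maDC over imDC (2 called) it was 1 when scaled to all reads and 1 in each of the 4 recounts. In DCreg over imDC (5 called) it was 3 with identical reads, without miR-125a-5p and miR-99b-5p. In maDC over HSC (4 called) it was 7 with no level minimum, 2 in the recount and 2 with identical reads. Other scalings moved the median log2 ratio of all miRNAs by between -0.53 (DCreg over imDC, all reads) and 0.73 (maDC over HSC, trimmed mean of M-values). miR-100-5p, at 0 to 121 reads, and let-7e-3p, at 0 to 19, are limited by depth.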
